A study of Mus musculus with 18 samples.

Results

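The genes described here are 32 genes listed as targets of the transcription factor p53, with main roles outside the mitochondrial apoptosis machinery. They were chosen by name, and whether p53 regulates each of them in these mouse cells was not tested. A gene was measured where the platform annotation paired at least 1 probe set with that single symbol, and where it had several, the one with the highest average signal was used. Of the 32 genes, 30 were measured, among 18194 genes with such a probe set; Gdf15 and Fdxr were not analysed here. Of the 30, 27 were tested among 11897 genes, and Tnfrsf10b, Perp and Eda2r lay too low for the test. The filter asked for a log2 value of at least 4.86 on at least 3 arrays, and 26 members reached that value on all 17 arrays with values.

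All cells were primary B-cell lymphoma cells from lymph nodes of Eµ-myc mice on a C57/Bl6 background, in which an immunoglobulin enhancer drives Myc in B cells. All of them lacked Suv39h1, a histone H3 lysine 9 methyltransferase, and all, untreated cells included, had been transduced with retroviral Bcl2, an inhibitor of apoptosis, and with Suv39h1-ERT2, a form of the enzyme that becomes active on addition of 4-hydroxytamoxifen (4-OHT, OHT in the sample titles). There were 3 lymphomas, numbered 4146, 4936 and 5043, and each gave 1 array per group: untreated (n = 3), ADR 5 d (n = 3, 5 days of Adriamycin, a DNA-damaging drug) and ADR+4-OHT 5 d (n = 3). After a further 14 days of culture free of both compounds came ADR outgrowth (n = 2, since the array of lymphoma 5043 held no values) and 2 outgrowth populations of the ADR+4-OHT cultures, separated by flow cytometry into morphologically big cells (n = 3) and small cells (n = 3).

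p53 is held low by Mdm2, which marks it for degradation, and by the related Mdm4. DNA damage signalling frees p53, which then binds pairs of short half-sites near its targets and raises genes for cell cycle arrest, DNA repair, antioxidant defence and death receptors. Several targets, Mdm2 among them, act back on p53 and limit the response. In Eµ-myc lymphomas the p53 pathway is known as a barrier to tumour growth and as a determinant of the response to chemotherapy, including senescence.

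The upstream stretches of members that carry a match to a p53 element are shown because such pairs of half-sites are what p53 binds. An element here is 2 copies of the p53 consensus half-site of 10 bases, 0 to 13 bases apart, with at most 2 mismatches over the 20 positions and none at the central C and G of either copy. The half-site is its own reverse complement, so both strands were read at once. RefSeq promoter windows (GRCm38.p6, 250 bases before and 50 bases after a transcript start) were found for 25 of the 32 genes, 37 windows in all. An element lay in 5 of the 37 windows, 13.5%, against 4.09% of all 32851 windows, and a half-site without mismatch in 11 of them, 29.7%, against 8.36%. Capitals mark the half-sites of each element. The first 2 sequences are the bases outside the annotated gene, chr11:40755310-40755536 and chr6:67037408-67037657, both minus strand; the elements lie 195 to 176 and 56 to 31 bases before the start.
Ccng1: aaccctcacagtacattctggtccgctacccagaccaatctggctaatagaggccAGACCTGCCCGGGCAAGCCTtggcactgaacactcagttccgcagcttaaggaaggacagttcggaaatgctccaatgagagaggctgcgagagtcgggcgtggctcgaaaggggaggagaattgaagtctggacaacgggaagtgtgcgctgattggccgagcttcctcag
Gadd45a: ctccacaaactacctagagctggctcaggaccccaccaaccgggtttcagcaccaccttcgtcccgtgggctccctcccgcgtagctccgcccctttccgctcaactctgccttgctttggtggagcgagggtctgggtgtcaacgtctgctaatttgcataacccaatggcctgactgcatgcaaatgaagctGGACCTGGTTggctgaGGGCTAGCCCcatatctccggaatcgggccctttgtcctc
For the other 3 genes only the element is shown, at chr10:41887253-41887275 (plus strand), chr9:66946296-66946315 (plus strand) and chr9:58249921-58249947 (minus strand).
Sesn1: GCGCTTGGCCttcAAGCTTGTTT
Rps27l: GGGCTTGTTGAGACTTGTCC
Pml: AGCCATGCCCgcatgccGGGCTTGTTT

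Values are log2 signals, so a difference of 1 is a 2-fold difference, and levels of different genes are not compared. A gene is said to have risen or fallen only where limma's moderated test, with Benjamini-Hochberg adjustment over all tested genes, passed at 0.05. Each lymphoma was a term of the model, and the SE of a difference comes from that model. Arrays carry no sequencing depth, and their small number limits the precision. In bulk cultures, fewer cells of a type and less RNA per cell cannot be told apart.

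A set of 3 arrays stood apart from the other 14 and bear on most results: ADR 5 d of lymphoma 4936, big outgrowth of 5043 and small outgrowth of 5043. Their scores on the first principal component, 33.6% of the variance, were 66.8, 66.3 and 58.5, against at most 5.94 elsewhere. Their Xist signals lay 5.70, 5.99 and 5.80 above the median of their lymphoma. ADR+4-OHT 5 d of lymphoma 4146 lay 3.49 below its own, so the identity of these 4 arrays is uncertain. The array of 4146 read 2.78 for Xist, under the filter value, and its component score of -9.06 lay among those of the other arrays. Xist also lay 2.72 and 1.58 above the lymphoma median on big cells of 4936 and 4146. Of 14 B-cell markers 13 were measured, and they did not all vary together. Cd79b ran from 10.25 to 12.09 and Blnk from 10.50 to 12.80 over the 17 arrays, and Pax5 from 5.36 to 6.44. Ms4a1 ran from 3.34 to 12.26, highest on ADR 5 d of 4936, and Blk read 8.01 and 8.38 on big and small cells of 5043, its highest values. Vpreb1 and Cr2 lay too low for the test. In ADR outgrowth 10 of the 13 lay below untreated and 3 above, with a median of -0.32. Cd22 (-1.84) and Cd79a (-1.39) were among the lower ones, and none passed by limma. Cd22 also lay below untreated after ADR (-1.27) and ADR+4-OHT (-1.29), where 6 and 5 of the 13 were lower. The part of these values in the p53 target values was not tested. Because the 3 arrays stood apart, results are given with and without them. The SE takes in the spread of all 6 groups, so these arrays also enter the SE of comparisons that do not hold them.

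After 5 days of ADR with 4-OHT, the p53 target genes lay mostly above untreated cells, by amounts that differed widely between lymphomas. Of the 30, 24 were higher and 6 lower, with a median difference of 0.46 against 0.00 over all tested genes, and the medians in lymphomas 4146, 4936 and 5043 were 0.31, 0.42 and 0.49. On the probe sets used, the 3 treated and 3 untreated arrays did not overlap in 12 genes. Of these 10 were higher (Mdm2, Xpc, Plk2, Plk3, Trp53inp1, Fas, Perp, Ei24, Prkab1 and Foxo3) and 2 lower (Ddb2 and Rrm2b). Among tested genes this lack of overlap held for 11 of the 27 members, 40.7%, and for 31.1% of all 11897. Of the 27 tested, 1 passed the test by limma, Ddb2, which fell; of all tested genes 2.94% passed in either direction. At an unadjusted p under 0.05 there were 4 members, 14.8% of the 27, below the 19.2% of all tested genes. Without the 3 outlying arrays the median was again 0.46, and 3 members passed: Ddb2, Prkab1 (0.80, adjusted p = 0.024) and Trp53inp1 (1.15, adjusted p = 0.029), against 4.04% of all tested genes. Macrophage markers were also higher in this group: 14 of 15 lay above untreated, 1 of the 8 tested rose by limma (Lyz2, by 5.87, adjusted p = 0.027), and their summed linear signal ran from 1226 to 8013 against 417 to 484. Of 14 fibroblast markers, 13 lay above untreated, 1 of them in all 3 lymphomas, with sums of 468 to 931 against 321 to 535. Their part in the p53 target values was not tested.

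After 5 days of ADR alone the picture was mixed: 17 of the 30 were higher than untreated and 13 lower, with a median of 0.12 against 0.02 over all tested genes. The medians by lymphoma were 0.21 in 4146, -0.23 in 4936, whose array stood apart, and 0.12 in 5043. No member passed by limma, nor did any gene (0% of all tested), and 2 members (7.41%) had an unadjusted p under 0.05, against 11.3% of all tested genes. Without the 3 arrays 19 were higher and the median was 0.15. Markers of other cells were higher here too. Of 14 fibroblast markers all 14 lay above untreated, but only 7 did so in all 3 lymphomas. The differences ran from 0.0003 (Pdgfrb) to 3.86 (Col1a2). Of the 8 tested, 7 had an unadjusted p under 0.05 and 0 passed after adjustment by limma. The sums over the 14 ran from 1385 to 4093. Of 15 macrophage markers 13 lay above untreated, 11 of them in all 3 lymphomas, with sums of 959 to 27677. Their part in the p53 target values was not tested. Set directly against ADR alone, ADR+4-OHT gave higher values for 25 of 30, with a median of 0.26 against -0.02 over all tested genes. Without the 3 arrays this became 20 of 30 and 0.13, and by lymphoma the medians were 0.03, 0.63 and 0.30. No member passed by limma (0% of all tested genes). At an unadjusted p under 0.05 there were 3 members (11.1%), against 12.5% of all tested genes. With arrays weighted by quality 1 member passed, Foxo3, against 4.38% of all tested genes.

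**Figure D1:**
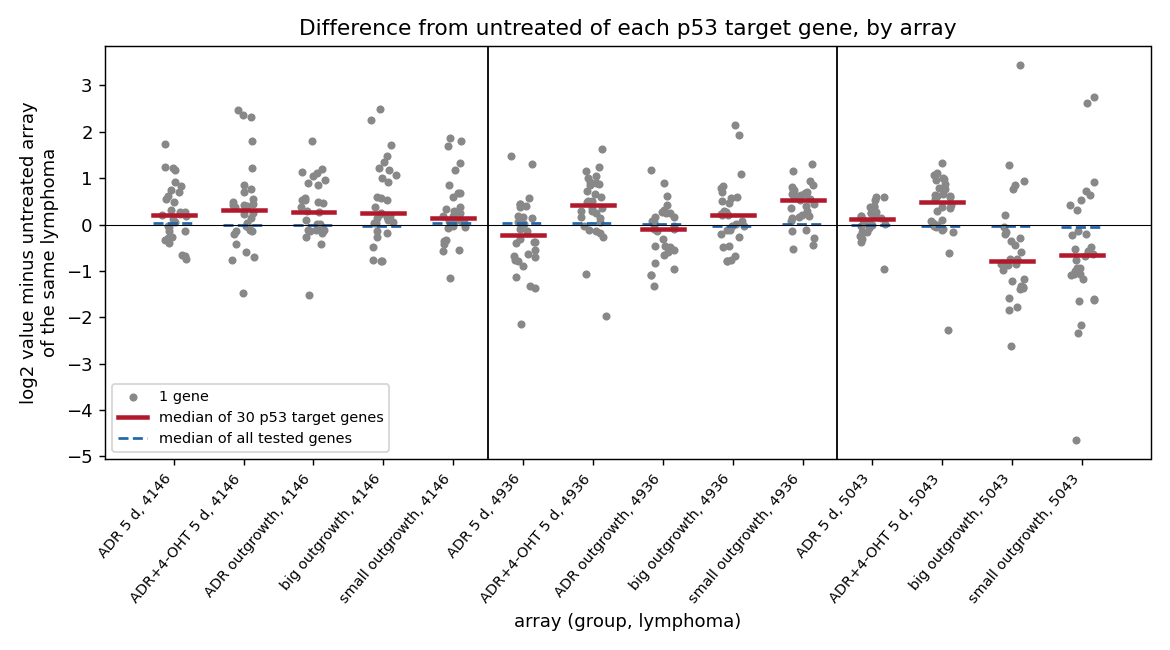
Difference of each of the 30 measured p53 target genes from the untreated array of the same lymphoma (y axis, log2) on the 14 other arrays (x axis); grey points are genes, red bars their median and blue dashed bars the median of all tested genes. The red bars lie at 0.31 to 0.49 on the ADR+4-OHT 5 d arrays and at -0.23, -0.80 and -0.66 on ADR 5 d of 4936, big of 5043 and small of 5043.

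In the outgrowth populations the direction differed between lymphomas. Big cells were higher than untreated in 14 genes and lower in 16, with a median of -0.05 and lymphoma medians of 0.24, 0.20 and -0.80. Small cells were higher in 12 and lower in 18, with a median of -0.07 and lymphoma medians of 0.14, 0.54 and -0.66. Without the 3 arrays the medians were 0.37 for big and 0.33 for small cells, with 20 and 22 genes higher. ADR outgrowth had 15 genes higher and 15 lower, with lymphoma medians of 0.27 in 4146 and -0.10 in 4936. By limma no member passed in big cells (0.412% of all tested genes did), small cells (0%), ADR outgrowth (0%) or big against small cells (0%), and the members with an unadjusted p under 0.05 numbered 4, 2, 0 and 3. These are 14.8%, 7.41%, 0% and 11.1% of the 27, beside 16.3%, 8.3%, 4.49% and 10.4% of all tested genes.

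The feedback regulators came first among the roles. Mdm2, the ubiquitin ligase for p53 (chr10:117688875-117710758), read 9.88, 10.15 and 10.72 in untreated cells of lymphomas 4146, 4936 and 5043. It read 10.38, 9.76 and 10.55 after ADR, and 10.73, 11.38 and 11.33 after ADR+4-OHT. On this probe set the ADR+4-OHT arrays all lay above the untreated and the ADR arrays. The difference from untreated was 0.90 (SE 0.54, adjusted p = 0.41 by limma), higher in 3 of 3 lymphomas, and after ADR alone it was -0.02 (SE 0.54). Without the 3 arrays the value after ADR alone was 0.22. On the other Mdm2 probe sets ADR+4-OHT and untreated overlapped. There ADR+4-OHT of 4146 read 9.51 and 4.76, below untreated 5043 at 9.92 and 5.15, while the mean differences were 0.79 and 1.02. In outgrowths Mdm2 read 10.77 and 10.21 in ADR outgrowth, 10.79, 10.97 and 9.39 in big cells, and 9.97, 10.89 and 8.55 in small cells, so that lymphoma 5043 was the lowest in both sorted populations.

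Mdm4, which binds p53 and blocks its activity, read 9.40, 9.19 and 9.43 untreated and 8.72, 7.04 and 9.61 after ADR. The low value of 7.04 was that of the array of 4936 that stood apart. After ADR+4-OHT it read 9.20, 9.69 and 10.40. The difference between the treatments was 1.31 (SE 0.55, adjusted p = 0.35 by limma), and other Mdm4 probe sets gave 0.63, 0.14 and 0.20. Ppm1d, a phosphatase that switches off damage signalling, was 0.25 (SE 0.30) above untreated after ADR and 0.49 (SE 0.30) after ADR+4-OHT, where its other probe set gave -0.03.

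Ccng1, cyclin G1, an early p53 target that acts through Mdm2, carries the first element printed above. It read 12.18, 12.06 and 12.33 untreated, 13.43, 12.10 and 12.71 after ADR, and 12.22, 13.20 and 12.93 after ADR+4-OHT. The highest lymphoma was thus 4146 with ADR alone and 4936 with 4-OHT, and the mean differences from untreated were 0.56 and 0.59 (SE 0.51 for both). Big cells read 12.44, 12.28 and 10.93 and small cells 11.63, 12.66 and 10.69, again lowest in 5043. Of the other genes with an element, Gadd45a lay 0.66, Sesn1 0.0043, Rps27l -0.15 and Pml -0.018 from untreated after ADR+4-OHT, so the carriers did not share a direction.

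**Figure D2:**
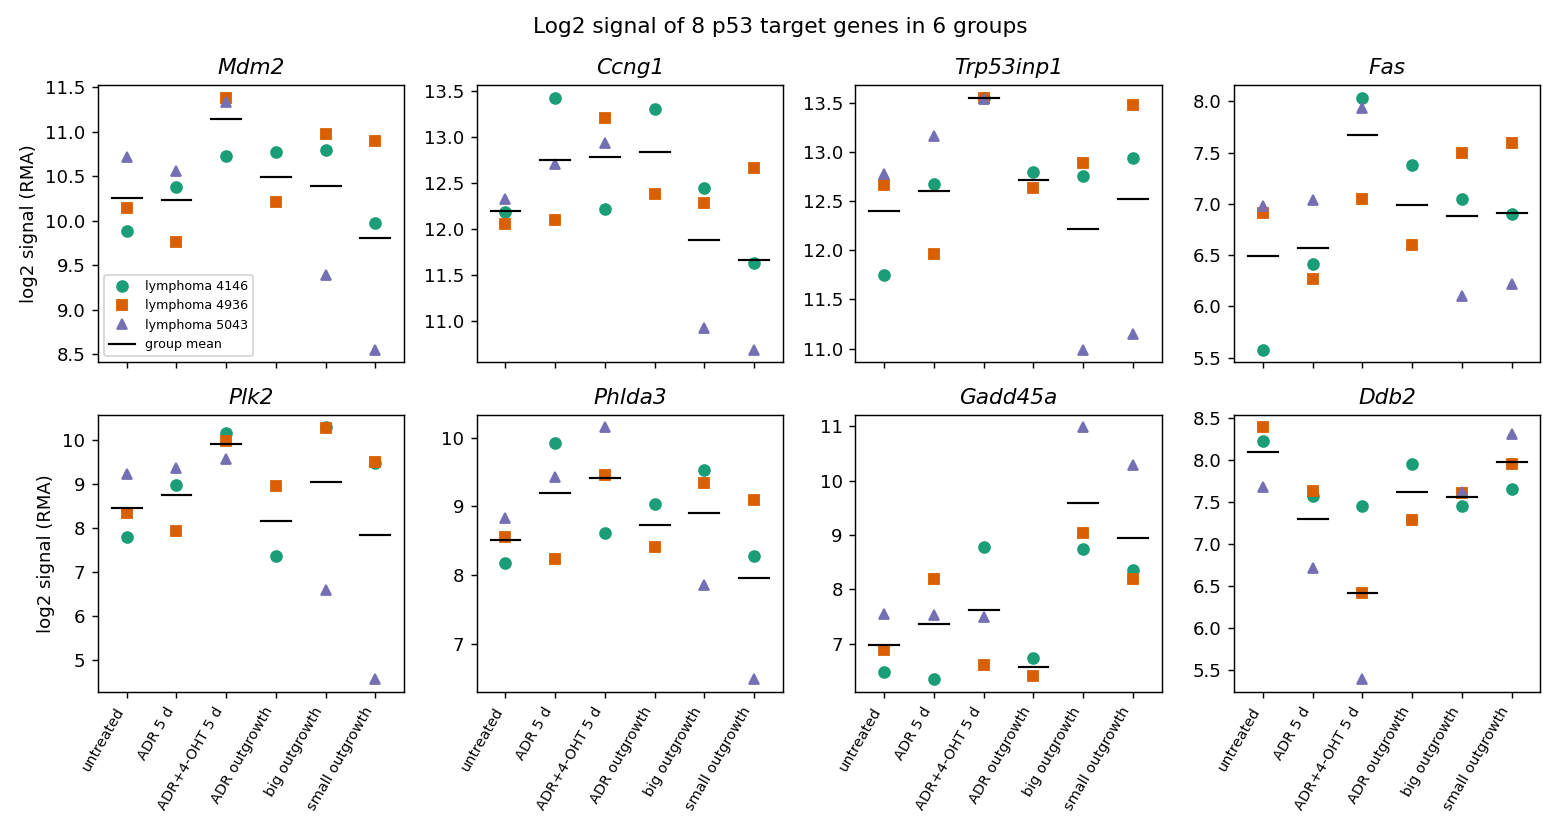
Log2 signal (y axis) of 8 p53 target genes in the 6 groups (x axis); each point is 1 array, its shape and colour give the lymphoma, and black bars are group means. Ddb2 is lowest in ADR+4-OHT, Gadd45a is highest in big cells, and in Mdm2, Ccng1, Plk2 and Phlda3 the small cells of lymphoma 5043 are the lowest array of all.

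Genes of arrest and stress signalling included several of the larger differences. Trp53inp1, a p53 cofactor linked to autophagy (chr4:11156441-11174379), read 11.75, 12.66 and 12.77 untreated and 13.55, 13.55 and 13.54 after ADR+4-OHT. The treated arrays had an SD of 0.007, and all were above untreated. The difference was 1.15 (SE 0.58, adjusted p = 0.32 by limma). After ADR alone Trp53inp1 read 12.67, 11.96 and 13.16, overlapping with untreated. A second Trp53inp1 probe set read 5.77, 6.58 and 7.48 after ADR+4-OHT against 5.58, 5.77 and 5.86 untreated, so there the groups overlapped. Differences in level between lymphomas were taken out before deposit, so the small SD says little about the lymphomas. Plk2, a polo-like kinase (chr13:110395044-110400844), read 7.79, 8.34 and 9.22 untreated and 10.15, 9.98 and 9.57 after ADR+4-OHT, a difference of 1.45 (SE 1.13, adjusted p = 0.54). In small cells Plk2 read 9.47, 9.49 and 4.56: higher than untreated in 2 lymphomas and lower by far in 5043. Its difference from untreated in small cells was -0.61 with all arrays and 1.13 without the 3.

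Gadd45a, a stress sensor that binds cell cycle and repair proteins (chr6:67035096-67037407), differed from this pattern. It read 6.47, 6.89 and 7.54 untreated, and 6.34, 8.20 and 7.53 after ADR. After ADR+4-OHT it read 8.78, 6.61 and 7.49, high on the array of 4146 alone. Big cells read 8.73, 9.04 and 10.99 and small cells 8.35, 8.19 and 10.28, all above every untreated array. Lack of overlap with untreated held for 22.2% of tested members in big and 7.41% in small cells. Over all tested genes the shares were 29.8% and 18.3%. The Gadd45a difference was 2.62 (SE 0.65, adjusted p = 0.10 by limma) in big and 1.97 (SE 0.65, adjusted p = 0.53) in small cells, higher in 3 of 3 lymphomas. Neither passed. In big cells Gadd45a passed with arrays weighted by quality, where 9.39% of all tested genes passed. It also passed without 4 arrays, the 3 and ADR+4-OHT of 4146 (2.24, adjusted p = 0.015 by limma), where 0.423% did.

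Fibroblast markers were also higher in big cells. Of 14 markers, 14 were higher in big cells than untreated, 10 of them in every lymphoma. The differences ran from 0.0036 (Pdgfrb, too low for the test) to 5.61 (Bgn). Of the 8 tested, 5 rose by limma, where 0.412% of all tested genes passed in either direction. The summed linear signal of the 14 markers ran from 4419 to 14945 in big cells, against 321 to 535 in untreated and 578 to 1214 in small cells. That of 15 macrophage markers ran from 743 to 1355 in big cells, 462 to 747 in small and 417 to 484 in untreated cells. In small cells 12 of the 14 fibroblast markers lay above untreated, 5 of them in every lymphoma. Of the 8 tested, 2 had an unadjusted p under 0.05 by limma (Bgn, 2.08, and Fn1, 1.62), beside 8.3% of all tested genes. By lymphoma (4146, 4936 and 5043) the fibroblast sums in big cells were 5411, 14945 and 4419, where Gadd45a read 8.73, 9.04 and 10.99. In small cells they were 1214, 578 and 667, where Gadd45a read 8.35, 8.19 and 10.28. The part of the fibroblast and macrophage markers in the Gadd45a values of big and small cells was not tested.

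Of the remaining genes of this kind, Plk3 lay 0.68 (SE 0.28, adjusted p = 0.27 by limma) above untreated in big cells. It also passed there with weighted arrays, where 9.39% of all tested genes did. Phlda3, an inhibitor of Akt signalling, read 8.18, 8.55 and 8.83 untreated and 9.92, 8.23 and 9.42 after ADR, a difference of 0.67 (SE 0.68, adjusted p = 0.70). The array of 4936 was the one below untreated. In small cells it read 8.28, 9.10 and 6.49, a difference of -0.56 with all arrays and 0.31 without the 3. Btg2, an antiproliferative gene, lay 1.34 below untreated in ADR outgrowth of 4936 and 0.52 above it in 4146; the fitted value of -0.56 (SE 0.58) also estimates the missing lymphoma, as do all ADR outgrowth values. For Plk2 the fitted ADR outgrowth value was -0.76 (SE 1.29), and with the compared groups alone it was 0.10.

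Among the repair genes, Ddb2 fell. Ddb2 encodes a damage-recognition protein of nucleotide excision repair (chr2:91211545-91237132). It read 8.22, 8.39 and 7.68 untreated, 7.57, 7.63 and 6.72 after ADR, and 7.45, 6.43 and 5.39 after ADR+4-OHT. Each treated array lay below its own untreated array, and neither treated group overlapped with untreated. After ADR alone such lack of overlap held for 7.41% of the tested members and 22.2% of all tested genes. The Ddb2 difference was -1.67 (SE 0.39, adjusted p = 0.045 by limma) after ADR+4-OHT, lower in 3 of 3 lymphomas. After ADR alone it was -0.79 (SE 0.39, adjusted p = 0.45). A second Ddb2 probe set gave -1.58 and -0.88. It was also below untreated on the 2 ADR outgrowth arrays (7.95 and 7.29) and on the big-cell arrays (7.46, 7.61 and 7.62), and in small cells (7.66, 7.95 and 8.32) in 2 of 3 lymphomas.

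The call for Ddb2 stood close to the threshold. It passed in 14 of 31 alternative fits, with adjusted p-values from 0.0046 to 0.27 and differences from -2.15 to -1.23. It did not pass without any 1 of the 3 lymphomas (adjusted p 0.087 to 0.27). Nor did it pass without any 1 of 11 single arrays (0.053 to 0.18): the 3 untreated arrays, ADR of 4146 and 5043, ADR+4-OHT of 4936 and 5043, big of all 3 lymphomas, and small of 4936.

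Xpc, the other damage-recognition gene of that pathway (chr6:91489305-91515888), had ranges that did not overlap between the sorted populations. It read 7.11, 6.63 and 7.02 in big cells and 7.62, 7.76 and 7.90 in small cells, against 7.30, 7.11 and 7.38 untreated. Big and small cells did not overlap, and the difference was -0.84 (SE 0.14, adjusted p = 0.065 by limma), lower in big cells in 3 of 3 lymphomas. Such lack of overlap held for 14.8% of the tested members and 21.7% of all tested genes. Xpc passed without the lymphoma term, a fit whose share of all tested genes is not given here. It also passed with weighted arrays, where 0.513% of all tested genes passed. Without the 3 arrays the Xpc difference was -0.83 (adjusted p = 0.21). Rrm2b, a ribonucleotide reductase subunit that supplies nucleotides for repair, lay -0.67 (SE 0.26) from untreated after ADR and -0.61 (SE 0.26) after ADR+4-OHT, below in 3 of 3 lymphomas each time; the adjusted p-values were 0.38 and 0.22. Polk, a translesion polymerase, and Ercc5, a nuclease of excision repair, ran from 8.04 to 9.88 and from 7.61 to 10.32 over the 17 arrays, and their lowest values were those of ADR 5 d of 4936 and small cells of 5043.

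Fas, the death receptor (chr19:34290647-34327775), read 5.58, 6.91 and 6.98 untreated and 8.04, 7.05 and 7.94 after ADR+4-OHT. The groups did not overlap, although the 4936 arrays differed by 0.14 against 2.46 in 4146. The difference was 1.18 (SE 0.51, adjusted p = 0.23 by limma), and 1.10 (SE 0.51, adjusted p = 0.40) against ADR alone, whose arrays read 6.42, 6.27 and 7.04. The array with the largest Fas difference, ADR+4-OHT of 4146, is the one whose Xist signal lay furthest below its lymphoma median. Tnfrsf10b, another death receptor, ran from 3.65 to 4.50 and Eda2r, a receptor of the same family, from 3.82 to 5.04, both low throughout. Perp, a desmosome protein, ran from 2.18 to 5.44 and was highest in small cells of 5043.

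Among the genes of metabolism and growth control none passed in any of the 7 comparisons. Sesn2, a sestrin that restrains mTORC1, lay -0.81 (SE 0.36, adjusted p = 0.30 by limma) from untreated in big cells. The differences were -0.79, -0.80 and -0.85 in the 3 lymphomas, but a second Sesn2 probe set gave a mean of 0.087. Of 17 members with several probe sets above the filter, 12 had 1 sign in all of them in this comparison. Prkab1, a subunit of the energy sensor AMPK, read 7.89, 7.46 and 7.14 untreated and 8.45, 8.50 and 7.92 after ADR+4-OHT, 0.80 higher (SE 0.32, adjusted p = 0.20). Foxo3, a stress-response transcription factor, read 9.29, 9.72 and 9.73 untreated, 9.26, 8.83 and 9.71 after ADR, and 9.75, 10.24 and 10.60 after ADR+4-OHT. It was 0.93 (SE 0.32, adjusted p = 0.27) higher when 4-OHT was added to ADR, in 3 of 3 lymphomas. Steap3, a metalloreductase of iron handling, lay -0.69 (SE 0.48, adjusted p = 0.49) from untreated in big cells.

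The members not yet described had these ranges over the 17 arrays. Zmat3, an RNA-binding target, ran from 9.46 in untreated 4146 to 11.38 in ADR+4-OHT of 5043, and lay 0.66 (SE 0.51) above untreated after ADR+4-OHT. Aen, an exonuclease induced by p53, ran from 8.58 to 10.48 and Ei24, a protein of the endoplasmic reticulum, from 9.50 to 11.36, with differences of 0.31 (SE 0.50) and 0.56 (SE 0.30). Their lowest arrays were small and big cells of 5043. Sesn1, the other sestrin, ran from 9.42 in big cells of 5043 to 11.48 in small cells of 4936. Cd82, a tetraspanin, ran from 7.99 to 9.71, Rps27l, a ribosomal protein paralogue, from 12.59 to 13.44, and Pml, the organiser of nuclear bodies, from 7.38 to 8.12. None of these 7 genes passed in any comparison.

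**Figure D3:**
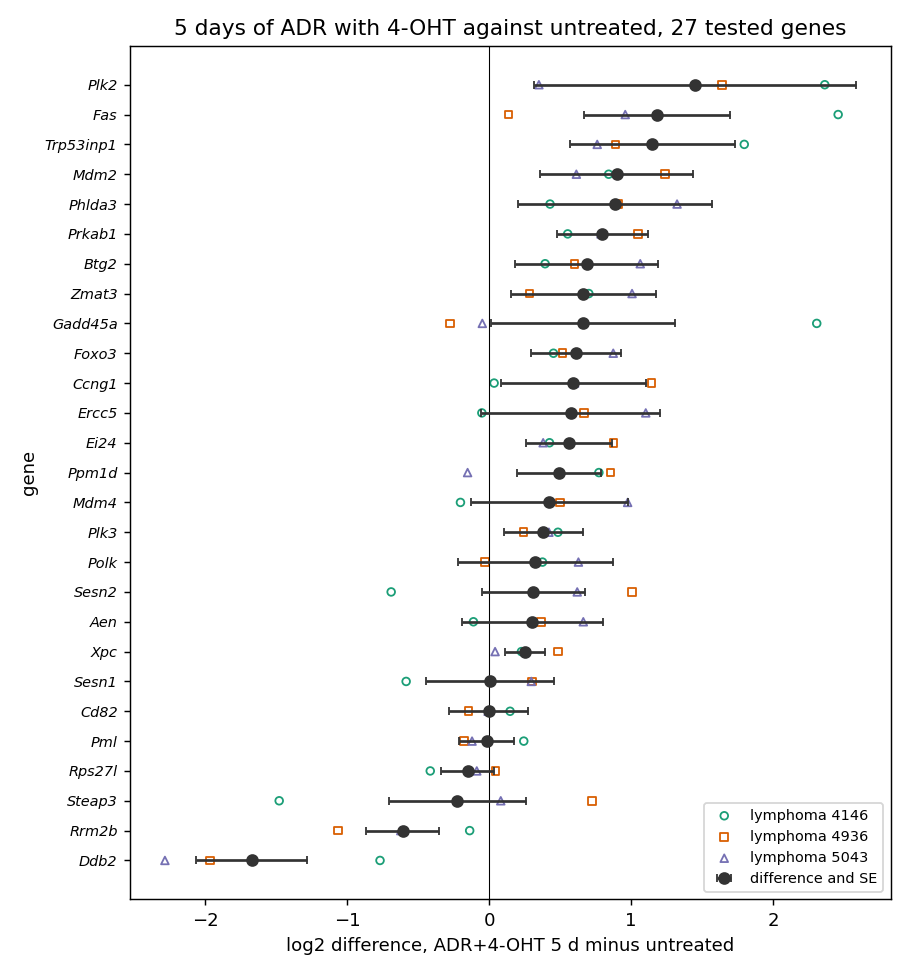
Log2 difference between ADR+4-OHT 5 d and untreated (x axis) for the 27 tested p53 target genes (y axis); black points and bars are the fitted difference and its SE, open symbols the difference within each lymphoma. Ddb2, at -1.67, is the one that passed the test, and Plk2 (1.45), Fas (1.18) and Trp53inp1 (1.15) lie at the other end with wide errors. The SE takes in the spread of all 6 groups, the outlying arrays included.

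These 3 arrays lacked the higher values seen elsewhere. Compared with the untreated array of the same lymphoma, 17 genes were lower and 13 higher on ADR 5 d of 4936, 24 and 6 on big cells of 5043, and 22 and 8 on small cells of 5043. The medians were -0.23, -0.80 and -0.66, while those over all tested genes were 0.04, -0.04 and -0.06. On the 11 other treated or outgrowth arrays, 18 of the 30 genes were higher than untreated on at least 8. The same share over all tested genes was not computed. On each of these arrays taken singly, 46.3% to 54.7% of all tested genes were higher than untreated. Outside the 3, ADR outgrowth of 4936 had more genes lower (18) than higher (12).

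On all 3 arrays 15 genes were lower, and 6 of them by at least 0.5 each time: Sesn1, Trp53inp1, Fas, Zmat3, Polk and Ercc5. Among tested genes, 55.6% of members and 21.4% of all genes were lower on all 3, and 22.2% and 4.89% by at least 0.5. For 16 members the lowest of the 17 arrays was 1 of the 3, which is 59.3% of those tested, against 26.3% of all tested genes. For 6 members (Gadd45a, Xpc, Tnfrsf10b, Perp, Cd82 and Prkab1) the highest array was 1 of the 3; among tested genes this held for 4 members, 14.8%, and for 24.5% of all. Mdm2 lay -0.38, -1.33 and -2.17 from untreated on them, and Plk2 -0.40, -2.63 and -4.65. The 5 genes higher on all 3 were Gadd45a (1.31, 3.45 and 2.74), Prkab1 (1.48, 1.27 and 0.92), Plk3, Tnfrsf10b and Perp. Of tested genes, 11.1% of members and 19.9% of all genes were higher on all 3. Cdkn2a, which encodes the Mdm2 inhibitor Arf and the kinase inhibitor p16, lay 7.79, 3.04 and 1.26 above its lymphoma median on the same arrays, but also 2.54 and 1.72 above it on big cells and ADR+4-OHT 5 d of 4936, which are not among the 3. The summed macrophage signal was 27677 on ADR 5 d of 4936, the highest of the 17, against 417 to 484 untreated. Lyz2, at a log2 signal of 14.49, gave the largest part of that sum. On big and small cells of 5043 the sums were 1212 and 462, the latter within the untreated range. The part of these values in the low p53 target signals was not tested.

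**Figure D4:**
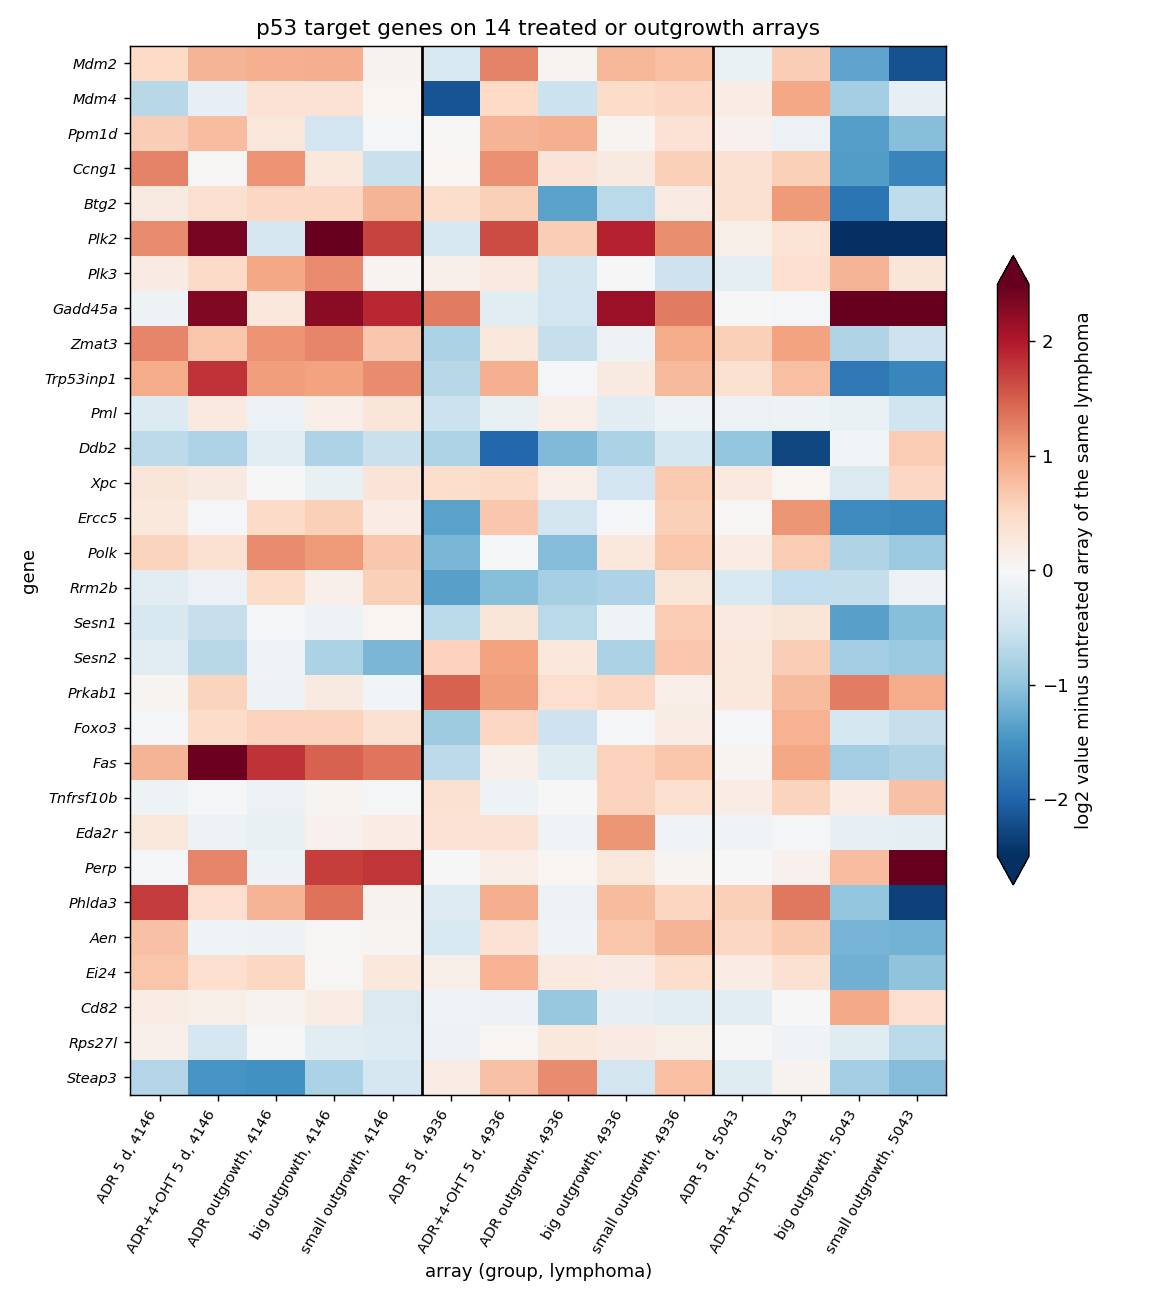
Difference of each p53 target gene (y axis) from the untreated array of the same lymphoma on 14 arrays (x axis, ordered by lymphoma); red is higher, blue lower, and the log2 colour scale stops at 2.5 in either direction. Blue prevails in the columns of ADR 5 d of 4936 and big and small cells of 5043, while Gadd45a is red there and Ddb2 is blue in most columns.

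Of 30 further p53 targets, 27 were measured and 25 tested, and 0 passed by limma in any of the 7 comparisons; at an unadjusted p under 0.05 there were 4 (16%) after ADR+4-OHT and 2 (8%) after ADR, beside 19.2% and 11.3% of all tested genes. After ADR+4-OHT 21 were higher and 6 lower, with a median of 0.32, and after ADR alone 13 and 14, with a median of -0.02. Cdkn1a, the p21 inhibitor of cyclin-dependent kinases, read 11.56, 12.25 and 12.56 untreated, 12.62, 10.58 and 12.42 after ADR, and 12.21, 12.87 and 13.20 after ADR+4-OHT. With 4-OHT it was above untreated by 0.65, 0.61 and 0.64 in the 3 lymphomas (0.64, SE 0.77, adjusted p = 0.73), and after ADR it was above untreated in lymphoma 4146 and below in the other two. Ephx1 (1.66, adjusted p = 0.23) and Ak1 (1.61, adjusted p = 0.34) had the largest differences of this list after ADR+4-OHT.

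Of 23 regulators of p53 and damage signalling genes, 21 were measured and 20 tested, and 2 passed after ADR+4-OHT by limma, where 2.94% of all tested genes passed. Setd7, a lysine methyltransferase that also modifies p53, rose by 1.08 (SE 0.16, adjusted p = 0.012), from 9.87, 9.37 and 9.82 to 10.69, 10.77 and 10.84. Mre11a, a nuclease of the complex that senses double-strand breaks, fell by 0.88 (SE 0.19, adjusted p = 0.033), from 8.83, 9.11 and 9.28 to 8.04, 8.38 and 8.17. Neither overlapped with untreated. Chek1, a checkpoint kinase, lay -1.37 from untreated (SE 0.34, adjusted p = 0.052) and Hipk2, a kinase that phosphorylates p53, 1.27 (SE 0.48, adjusted p = 0.17).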

How the data were processed

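Affymetrix mouse arrays with 45101 probe sets were hybridised with biotinylated cRNA (one-cycle labelling), per the labels' protocols. The authors deposited log2 signal values; RMA and Partek are named in the submitters' processing notes, with versions and order not given in the sources used here. For each probe set the medians of the 3 lymphomas were equal (tolerance 1e-06), so differences in level between lymphomas were taken out before deposit. Of 18 samples, 17 held values.

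The platform annotation gave the gene names (34958 with 1 symbol, 932 with several, left out, and 9211 not listed). Of 18194 genes, 11897 were tested with limma 3.58.1 in R 4.3.3, with terms for the 6 groups and for lymphoma (9 residual and 2.53 prior degrees of freedom), and adjusted by Benjamini-Hochberg at 0.05. Arrays of different groups were paired by lymphoma, per the labels' titles and treatment protocol; the removal of lymphoma medians left no way to check the pairing on the values. The fit was tested on simulated data. Gene positions and promoters are RefSeq's, GRCm38.p6.

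The members and lists were chosen with earlier results of these data known. Named in each comparison were members that passed, the 4 with the largest change, and always Mdm2, Mdm4, Ppm1d and Ccng1; from the other lists, Cdkn1a, genes that passed and the 2 largest. Other members were named by role after their values were seen. Alternatives changed the block, filter, probe set rule, normalization, variance model, array weights or arrays used.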

Additional observations from a re-analysis of the deposited data

How the results depend on the processing

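Over 1612 values of single genes under alternatives, 1522 kept the sign of the reported value and 90, none of which passed the test, did not; the cause was not tested. Medians over members stayed within 1 SD between lymphomas in 209 of 217 values. Counts of members that passed stayed within 1.5 times in 193 of 217. The reported count was 0 in every comparison except ADR+4-OHT against untreated, so most of these set 0 against 0 and do not show stability. Of the other counts 7 were higher, and 17 were lower, all of these in ADR+4-OHT against untreated. The SD took in the 3 outlying arrays, so it was wide for big and small cells. Their medians of -0.05 and -0.07 became 0.37 and 0.33 without the 3 arrays and still counted as within 1 SD. For these populations the count therefore does not show that the median was stable. For ADR+4-OHT against untreated the count of 1 became 0 with no filter on low values and with the mean over probe sets. With the compared groups only it was also 0. It was 3 without the 3 outlying arrays, against 4.04% of all tested genes. Without those and ADR+4-OHT of 4146 it was again 3, against 6.85%. Leaving out arrays or lymphomas gave 0 to 1 and a median of 0.26 to 0.62.
With arrays weighted by quality 1 member passed in ADR+4-OHT against ADR (Foxo3), 2 in big cells against untreated (Gadd45a and Plk3) and 1 in big against small cells (Xpc). Of all tested genes 4.38%, 9.39% and 0.513% passed in these weighted comparisons. Without the replicate block for lymphoma 1 passed in big against small cells (Xpc) and no other count changed. The share of all tested genes that passed in that fit is not given here. Without the 4 arrays 1 passed in big cells against untreated (Gadd45a), against 0.423% of all tested genes. Leave-out medians ran from -0.38 to 0.18 for ADR outgrowth and from -0.32 to 0.21 for big against small cells.

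The sign changed as follows without the 3 arrays and, in brackets, without the 4. After ADR, Mdm2 was 0.22 (0.22). In ADR+4-OHT against ADR, Ccng1 was -0.32 (same sign as reported without the 4) and Ppm1d -0.034 (-0.21). In ADR outgrowth Mdm4 was 0.087 (0.047). In big cells against untreated Mdm4 was 0.59 (0.55) and Ccng1 0.15 (0.10). In small cells Mdm2 was 0.31 (0.29), Plk2 1.13 (1.19), Phlda3 0.31 (0.25) and Ppm1d (0.0064). In big against small cells Mdm4 was 0.13 (0.13). With weighted arrays Mdm2 after ADR was 0.038, Ccng1 and Ppm1d in ADR+4-OHT against ADR -0.077 and -0.024, and Mdm4 0.22 in big cells and 0.084 in big against small cells. With the mean over probe sets Mdm2 in ADR outgrowth was -0.055, and Mdm4 was -0.065 in small cells and 0.022 in big against small cells. Median centring gave Mdm2 in big cells -0.01, quantile normalization gave Mdm4 in big cells 0.042, and the compared groups alone gave Plk2 in ADR outgrowth 0.10.

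Leaving out arrays or lymphomas changed the sign within these ranges. For Mdm2 they were -0.38 to 0.43 after ADR, -0.48 to 0.53 in ADR outgrowth, -0.25 to 0.87 in big cells, -1.04 to 0.42 in small cells and -0.045 to 1.12 in big against small cells. For Mdm4 they were -0.48 to 0.43 in ADR outgrowth, -0.37 to 0.58 in big cells, -0.21 to 0.38 in small cells and -0.49 to 0.46 in big against small cells. For Ccng1 they were -0.49 to 0.66 in ADR+4-OHT against ADR, -0.087 to 0.98 in ADR outgrowth, -0.59 to 0.24 in big cells, -1.10 to 0.025 in small cells and -0.17 to 0.76 in big against small cells. For Ppm1d they were -0.087 to 0.49 in ADR+4-OHT against ADR, -0.049 to 0.62 in ADR outgrowth and -0.55 to 0.16 in small cells. For Plk2 they were -1.87 to 0.10 in ADR outgrowth, -1.75 to 1.42 in small cells and -0.26 to 2.15 in big against small cells. Btg2 in ADR outgrowth ran from -1.50 to 0.23 and Phlda3 in small cells from -1.21 to 0.32. Groups of 2 or 3 arrays limit what could pass, and where 1 array was left in a group it was assumed to vary like the others.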
